A study of Mus musculus with 8 samples.

Results

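The 39 genes of the mouse Hox clusters were followed in Thy1+ testis cells of wild type pups and of pups labelled Glis3KO2. The members are all genes whose symbol is Hoxa, Hoxb, Hoxc or Hoxd followed by a number. 46 probes on the array carry a RefSeq accession of 36 of them, out of 41174 probes in all. Hoxc4, Hoxc6 and Hoxc11 have no probe named here. 32 of the 36 passed the filter on dim probes and were fitted together with all 17508 named genes that passed it. The series compares 8 one-colour arrays, 4 labelled WT (genotype wild type) and 4 labelled Glis3KO2, all of strain C57BL/6 at postnatal day 4. No animal was treated, and pups of either genotype stayed with their own mothers. Thy1, a surface protein of spermatogonial stem and progenitor cells that fibroblasts carry too, was the handle for isolation. Glis3 belongs to the GLI-similar zinc finger transcription factors. Which part of the gene the allele removes is not stated in the labels. The design text speaks of 3 testes of each genotype and the labels list 4 samples. The labels do not say whether the samples of a genotype are separate animals, and p-values here therefore reflect the spread among samples that may differ only technically.

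Hox genes encode homeodomain transcription factors that tell cells where they lie along the body axis. They stand in 4 clusters, Hoxa on chromosome 6, Hoxb on 11, Hoxc on 15 and Hoxd on 2, and genes at the same place in each cluster form a paralogue group, numbered 1 to 13. Low numbers (anterior) are switched on early and toward the head, high numbers (posterior) late and toward the tail, and mesenchymal cells of the trunk keep such a positional code after birth. In the male tract the posterior genes are known for the epididymis, the vas deferens, the prostate and the descent of the testis. HOX proteins bind DNA with homeodomain partners of the TALE class, the PBX and MEIS families.

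All values are log2 processed spot intensities with the 75th percentile of their array subtracted, so 0 is the signal at that percentile and 1 unit is a doubling. Values of different probes are not compared with each other, since each probe has its own efficiency. On every array between 86.0% and 90.3% of spots were well above background, a flag set by the scanner software, and the 75th percentile lay between 243 and 533 units. The number of arrays limits the precision. WT replicates 3 and 4 stood apart from the rest in an earlier analysis of these data. The median Hox difference, the differences of Hoxb3, Hoxb5, Hoxb6 and Hoxd4 and the counts of Hox slopes are also given without them. Each slide held WT arrays at positions 1 and 2 and Glis3KO2 arrays at positions 3 and 4, so position and genotype cannot be told apart. Of a germ cell list of 21, 20 members were measured, and each was detected on 7 or 8 arrays. Measured genes had already passed the filter on dim probes, so these counts do not show which cells were present. The targeted gene, Glis3, read -1.09, -1.01, 0.57 and 0.60 in WT replicates 1 to 4 against -1.98, -2.18, -1.18 and -1.32 in the Glis3KO2 replicates. Every Glis3KO2 array was below every WT array, and the difference of -1.43 (SE 0.45) did not pass over all genes (limma adjusted p = 0.697). It is not known whether this probe lies within the deletion.

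Promoter sequences were available for 22 Hox genes, 24 start sites in all (RefSeq, GRCm38.p6). 6 are shown, each the 250 bases before the start, 5′ to 3′ along the gene. Hoxb1 is the member detected on no array, Hoxa10, Hoxa11, Hoxd8 and Hoxd9 are posterior or central members whose signal differed most between arrays or was called below, and Hoxd13 is a member with a flat signal. Capitals mark matches on either strand to 5 motifs. They are the TATA box, spelled TATAAA, the CCAAT box, the site of HOX with PBX, spelled TGATNNAT, the MEIS site, spelled TGACAG, and the core of the GLIS site, spelled TGGGGGGT. Adjoining or overlapping matches run together.
Hoxb1 (chr11:96365508-96365757, + strand): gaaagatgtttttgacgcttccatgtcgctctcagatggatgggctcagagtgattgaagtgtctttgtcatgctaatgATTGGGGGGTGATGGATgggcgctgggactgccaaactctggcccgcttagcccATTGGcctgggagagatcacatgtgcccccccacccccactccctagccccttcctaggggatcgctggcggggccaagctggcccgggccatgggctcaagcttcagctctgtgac
Hoxa10 (chr6:52234940-52235189, - strand): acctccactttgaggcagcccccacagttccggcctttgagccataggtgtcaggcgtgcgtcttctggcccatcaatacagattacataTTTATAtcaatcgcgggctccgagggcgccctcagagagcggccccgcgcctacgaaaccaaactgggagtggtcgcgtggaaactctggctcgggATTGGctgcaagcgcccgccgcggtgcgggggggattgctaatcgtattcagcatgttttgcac
Hoxa11 (chr6:52245811-52246060, - strand): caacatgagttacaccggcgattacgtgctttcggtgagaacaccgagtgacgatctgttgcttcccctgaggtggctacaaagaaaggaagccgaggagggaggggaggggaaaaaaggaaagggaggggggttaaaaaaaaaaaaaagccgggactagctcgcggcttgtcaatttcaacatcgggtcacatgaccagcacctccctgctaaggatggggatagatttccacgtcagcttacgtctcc
Hoxd8 (chr2:74704365-74704614, + strand): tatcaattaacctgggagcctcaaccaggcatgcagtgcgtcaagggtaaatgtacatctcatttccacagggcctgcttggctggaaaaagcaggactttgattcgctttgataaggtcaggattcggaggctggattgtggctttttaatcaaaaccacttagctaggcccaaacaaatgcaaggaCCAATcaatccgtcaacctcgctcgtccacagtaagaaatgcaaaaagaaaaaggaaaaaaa
Hoxd9 (chr2:74697513-74697762, + strand): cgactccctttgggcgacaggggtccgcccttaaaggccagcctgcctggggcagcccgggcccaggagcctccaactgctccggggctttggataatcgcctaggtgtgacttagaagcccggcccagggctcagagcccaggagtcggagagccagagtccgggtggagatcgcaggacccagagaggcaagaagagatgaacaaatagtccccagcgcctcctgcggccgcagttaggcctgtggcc
Hoxd13 (chr2:74667975-74668224, + strand): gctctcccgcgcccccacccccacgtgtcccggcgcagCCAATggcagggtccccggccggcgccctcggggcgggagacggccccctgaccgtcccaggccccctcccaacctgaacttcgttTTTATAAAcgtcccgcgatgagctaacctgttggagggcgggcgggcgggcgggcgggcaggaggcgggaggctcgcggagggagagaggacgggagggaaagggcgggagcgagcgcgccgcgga
The Hox promoters were richer in CpG than promoters at large, with a median of 12.5 CpG in 250 bases and 58.6% G or C, against 6.0 and 52.4% over 32851 promoters of 27025 genes. CCAAT was in 14 of 24 Hox windows (58.3%; 33.8% of all promoters) and TATAAA in 4 (12.4% of all). TGATNNAT was in 4 Hox windows, those of Hoxa2, Hoxb1 and Hoxb8 and 1 of the pair for Hoxd11, and in 7.68% of all promoters. TGACAG was in 2, Hoxa2 and Hoxa3, and in 15.9% of all. The GLIS core was in 1, Hoxb1, and in 1.36% of all promoters. In the Hoxb1 window the GLIS core, a CCAAT on the reverse strand and TGATNNAT overlap in the single run ATTGGGGGGTGATGGAT. These matches are descriptions of the letters in these windows.

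Most Hox genes gave signal in these cells. Of the 36 with a probe, 27 were well above background on all 8 arrays, 8 on some arrays and 1, Hoxb1, on none. Hoxc5 counts among the 8 because its outlier spot was left out on WT replicate 4 and Glis3KO2 replicate 3. It was well above background on the other 6 arrays. The genes detected least lay at the anterior end, with Hoxd1 on WT replicate 3 only and Hoxb1 nowhere, and at Hoxa11, which was on in 2 arrays. All members with a probe in groups 3, 4, 6, 7, 8, 9 and 10 were on in all arrays. By cluster, 8 of 11 Hoxa genes, 9 of 10 Hoxb genes, 3 of 6 Hoxc genes and 7 of 9 Hoxd genes were on in all arrays. Each array had between 28 and 33 of the 36 genes above background, with the fewest in WT replicate 4. Of all spots, 86.0% to 90.3% were well above background on each array. Among named genes with a value on every array, 16121 of 19090 had a probe well above background on all 8 arrays. Of the Hox genes with such values, 27 of 35 did. Being on was therefore not particular to Hox genes.

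**Figure D1:**
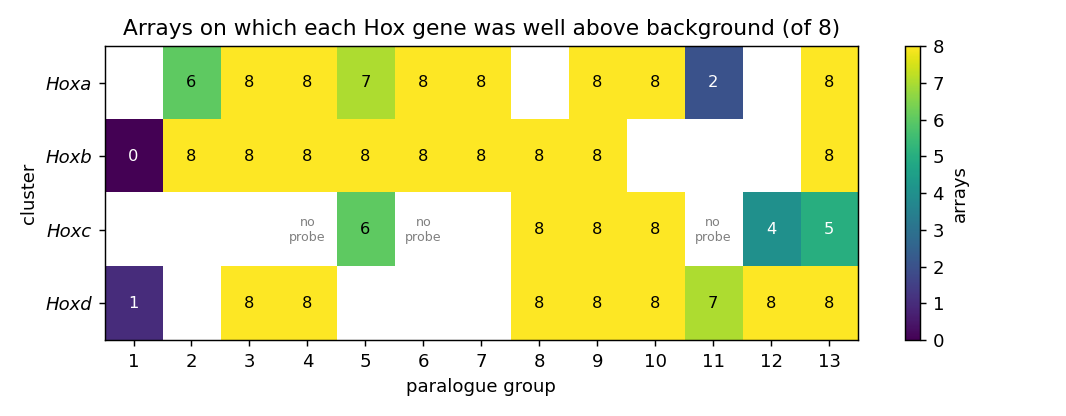
Number of the 8 arrays on which at least 1 probe of each Hox gene was well above background, by cluster (rows) and paralogue group (columns); white squares hold no gene of that name, no probe or a gene not drawn. Most genes drawn are at 8, and the lowest counts are Hoxb1 at 0, Hoxd1 at 1 and Hoxa11 at 2. Hoxc5, at 6, had no value on WT replicate 4 and Glis3KO2 replicate 3.

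4 members with a probe were not fitted. Hoxb1, which specifies a hindbrain segment, was spotted 10 times and its mean processed signal was between 1.98 and 7.43 units, not well above background on any array. Hoxd1 had 4.66 to 12.2 units and passed only on WT replicate 3. Hoxc5 was above background on 6 arrays, with values from -0.28 to 1.15, and its spot was flagged as an outlier on WT replicate 4 and Glis3KO2 replicate 3. Hoxa11, needed for the uterus, the vas deferens and the kidney, was at background on each WT array (not well above it) and was detected on Glis3KO2 replicates 2 and 3.

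Hoxa11 had the widest spread of any member. Its processed signal was 7898 units on Glis3KO2 replicate 2 and 4.49 to 15.3 units on the other 7 arrays. On the log2 scale that is 4.11 against -6.30 to -4.04. Over all 4 Glis3KO2 arrays the mean was at least 4.65-fold above the background bound of the WT arrays. Without replicate 2 the mean of -4.90 lay under that bound of -4.87, so no fold is given. The gene was singled out after its values were seen.

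The question posed by the design is whether the genotypes differ. No Hox gene passed the threshold in the genotype comparison, as was true of all 17508 genes (0% called; limma with Benjamini-Hochberg adjustment). At an unadjusted p under 0.05, Hoxb2 and Hoxb5 were higher in Glis3KO2 and no member was lower, against 2.15% of all genes higher and 4.75% lower. In no fitted member did the 4 arrays of a genotype lie beyond the 4 of the other, which happened in 3.5% of all genes. The mean was higher in Glis3KO2 for 25 of the 32 members, against 40.8% of all genes, and the median difference was 0.44, against -0.08 over all genes. Among the blocks of paralogue groups, 5 of 6 anterior members (groups 1 to 3), 12 of 12 central members (4 to 8) and 8 of 14 posterior members (9 to 13) had the higher mean in Glis3KO2, with medians of 0.56, 0.81 and 0.34. These sizes rest in part on single arrays. The median of the 32 differences was 0.21 without WT replicate 4, 0.26 without Glis3KO2 replicate 2, 0.69 without WT replicate 2 and 0.05, with 18 of 32 members higher, without WT replicates 3 and 4 together. With normexp and the 75th percentile it was 0.11, with 17 of 32 members higher and the median of all genes at -0.23.

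Groups 2 to 6 of Hoxb and Hoxd held the genes of smallest p on the higher side. Hoxb2, a hindbrain patterning gene, read -4.37, -4.53, -3.48 and -4.40 in WT and -2.87, -2.56, -2.90 and -4.14 in Glis3KO2. 3 of the 4 Glis3KO2 arrays were above all WT arrays, and replicate 4 lay among them. The probe was well above background on all 8 arrays but dim. Its processed signal was 12.9 to 23.1 units in WT and 19.3 to 77.8 in Glis3KO2. The difference was 1.08 (SE 0.38, 2.11-fold; unadjusted p = 0.0172, limma adjusted p = 0.697), and each numbered pair had the higher value in Glis3KO2. With normexp background correction and the 75th percentile it turned to -0.30, and it was 0.32 with normexp and quantile normalization. Hoxb5 read -2.43, -1.56, -3.09 and -3.37 in WT and -2.15, -1.10, -1.06 and -2.15 in Glis3KO2, with a difference of 0.997 (SE 0.43; limma adjusted p = 0.697). Its groups overlapped through WT replicate 2. The difference was 0.17 with normexp and the 75th percentile, 0.48 with normexp and quantile normalization and 0.38 without WT replicates 3 and 4.

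Hoxb3, Hoxb6 and Hoxd4 had larger differences and larger spreads. The WT mean of Hoxb3 was -0.84 ± 1.35 and its Glis3KO2 mean 0.68 ± 1.40 (SD, n = 4 each), a difference of 1.52 (SE 0.78). Its WT values were 0.27, 0.22, -2.56 and -1.27, and its Glis3KO2 values were 1.47, 1.38, 1.28 and -1.41. Hoxb6 showed a similar split of the arrays, with -0.19, -0.12, -2.63 and -1.77 in WT, 0.41, 0.94, 1.11 and -1.29 in Glis3KO2 and a difference of 1.47 (SE 0.67). In Hoxb3 and in Hoxb6, Glis3KO2 replicate 4 lay with WT replicates 3 and 4, and the other 3 Glis3KO2 arrays lay above all WT arrays. Hoxd4 read -0.996, -1.23, -3.15 and -3.32 in WT and -1.04, -1.18, -0.46 and -1.29 in Glis3KO2. WT replicates 3 and 4 alone were low there, and the difference of 1.18 (SE 0.53) was carried by pairs 3 (2.69) and 4 (2.03), with -0.04 and 0.05 in pairs 1 and 2. For each of these 3 genes the limma adjusted p was 0.697. Without WT replicates 3 and 4 the differences were 0.44 for Hoxb3, 0.45 for Hoxb6 and 0.12 for Hoxd4, and with normexp and the 75th percentile that of Hoxd4 was 0.39. Within slides 1 and 2 the differences were 1.04 and 1.11 for Hoxb2, 1.15 and 0.84 for Hoxb5, 2.52 and 0.51 for Hoxb3, 2.17 and 0.77 for Hoxb6, and 1.33 and 1.04 for Hoxd4.

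On the lower side the members of smallest p were mostly posterior genes. Hoxb9, a gene of the thoracic region, read 1.68, -0.83, 0.89 and 0.04 in WT and -0.09, -0.10, 0.31 and -0.67 in Glis3KO2, a difference of -0.58 (SE 0.48) that was -0.17 without WT replicate 1 and -1.01 without WT replicate 2. A second Hoxb9 probe went the other way, with a difference of 0.79 (SE 0.56). Hoxc12 read -4.28, -4.87, -4.66 and -5.21 in WT and -4.63, -4.87, -6.26 and -4.98 in Glis3KO2, and it was above background on 4 arrays only. Its difference of -0.43 (SE 0.37) was -0.07 without Glis3KO2 replicate 3. Hoxa13, which acts in the digits and the genital tubercle, read -0.58, -1.12, -0.98 and -1.05 in WT and -1.44, -1.65, -0.99 and -0.78 in Glis3KO2, a difference of -0.28 (SE 0.26), which was -0.14 without Glis3KO2 replicate 2 and -0.43 without Glis3KO2 replicate 4. Hoxb13, known from the prostate, was the flattest member, with -2.72, -2.80, -2.60 and -2.51 in WT and -2.81, -2.91, -2.85 and -2.70 in Glis3KO2. Its difference was -0.16 (SE 0.19), and each pair was lower in Glis3KO2. The differences of Hoxb9 and Hoxc12 came from slide 1 (-1.17 and -0.97) and were 0.01 and 0.12 within slide 2. None of these 4 passed, with unadjusted p from 0.258 to 0.430 and a lowest limma adjusted p of 0.754.

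The replicate numbers were taken to pair the arrays across genotypes, and a second fit took that number as a block. The values did not single out the numbering of replicates 3 and 4, as described under the processing. With the block, 7 members were higher in Glis3KO2 at an unadjusted p under 0.05 (Hoxa2, Hoxa5, Hoxb2, Hoxb3, Hoxb5, Hoxb6 and Hoxd11) and none was lower, against 4.39% of all genes higher and 6.33% lower. Their differences ran from 0.997 for Hoxb5 to 1.76 for Hoxd11. Of the 4 WT arrays, Hoxa2 was above background on 2, and Hoxa5 and Hoxd11 on 3 each, so their differences rest in part on signal near background. None passed the adjusted threshold with the block, with the smallest limma adjusted p among members at 0.422, for Hoxb2.

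**Figure D2:**
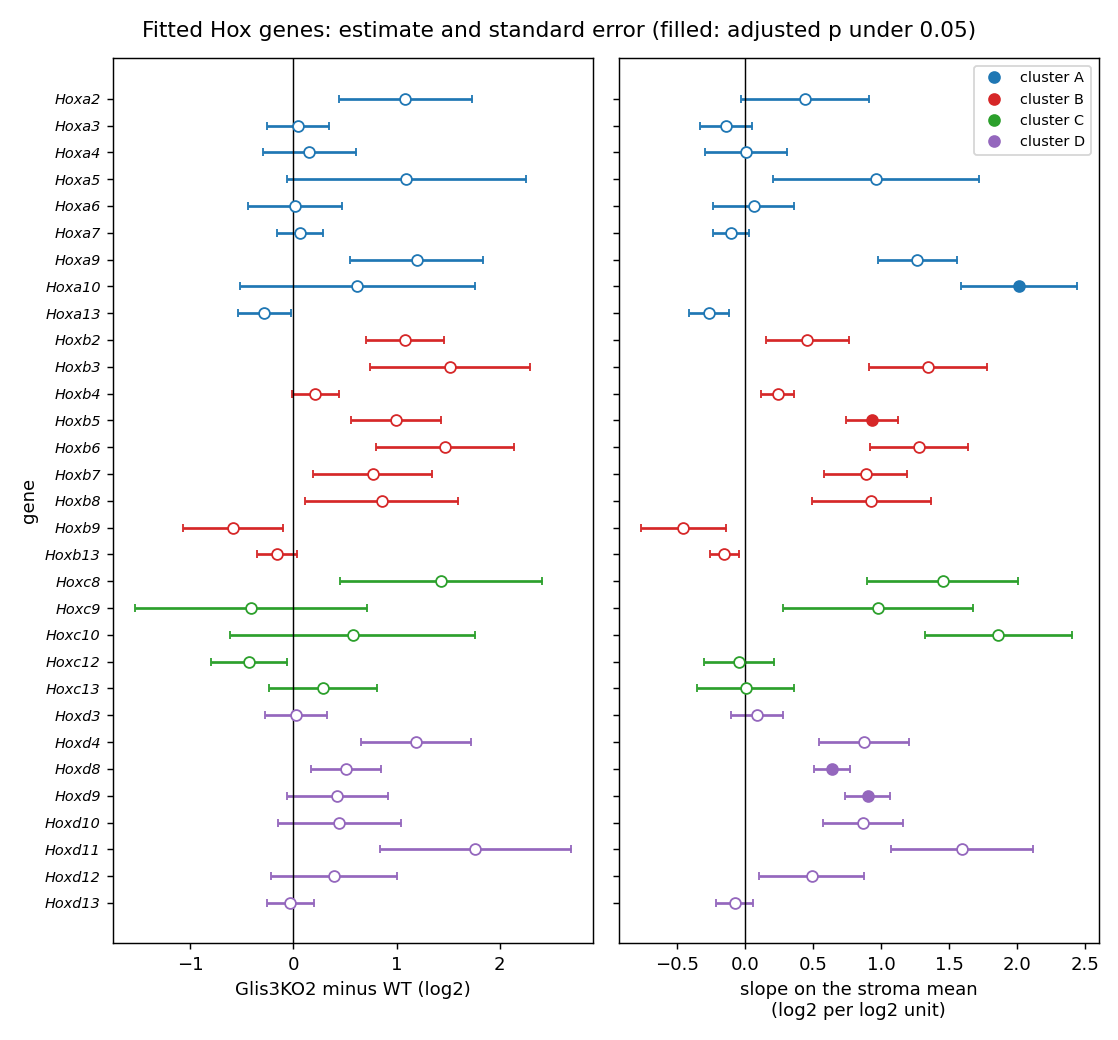
Estimates with standard errors for 31 of the 32 fitted Hox genes, coloured by cluster: left, the log2 difference Glis3KO2 minus WT, and right, the slope on the array's stroma mean (log2 per log2 unit); filled points passed the adjusted threshold. 25 differences lie above 0 with none filled, and the slopes of Hoxb5, Hoxd8, Hoxd9 and Hoxa10 are filled.

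Hox genes varied more from array to array than genes at large. The median span between the highest and the lowest array was 2.50 log2 units for the 32 members, against 1.30 for all genes. 13 members (40.6%) spanned more than 3.08, the 95th percentile of all genes. Among members above background on all arrays the spans were widest for Hoxa10 (44.7-fold), Hoxc9 (43.1-fold), Hoxc10 (34.2-fold by its brighter probe) and Hoxc8 (27.7-fold). The lowest array of Hoxa5 (WT replicate 4) and that of Hoxd11 (WT replicate 1) were not well above background. Against the dimmest signal above background on the array, Hoxa5 spanned at least 82.3-fold and Hoxd11 at least 50.8-fold. 4 members spanned less than 1 log2 unit: Hoxa7, Hoxb4, Hoxb13 and Hoxd13. Hoxa7 lay between -1.08 and -0.44 and Hoxd13, a gene of the digits and the external genitalia, between 0.59 and 1.23 by its brighter probe.

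**Figure D3:**
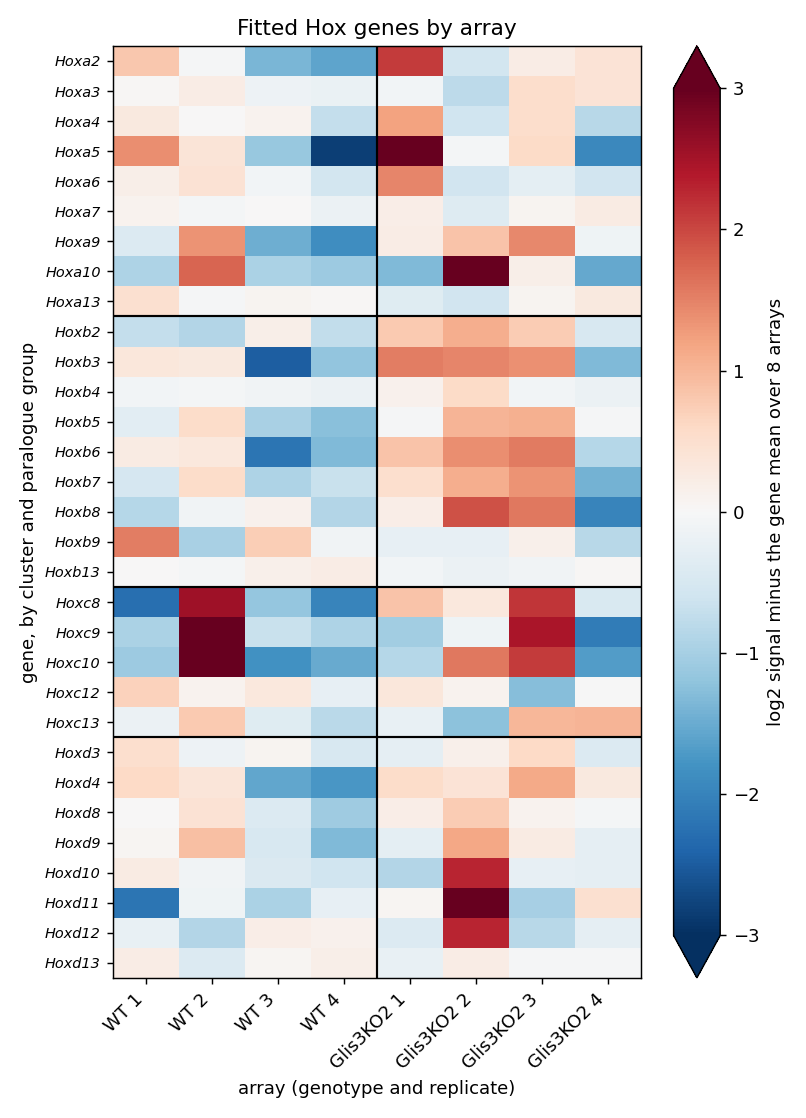
Log2 signal of 31 of the 32 fitted Hox genes (rows, by cluster and paralogue group) on the 8 arrays (columns), each minus the gene's mean over the arrays; colours saturate at 3 log2 units. Hoxc8, Hoxc9 and Hoxc10 are highest on WT replicate 2, Hoxd10, Hoxd11 and Hoxd12 on Glis3KO2 replicate 2, and Hoxa2, Hoxa4 and Hoxa5 on Glis3KO2 replicate 1.

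The high arrays were not the same for all clusters. The following genes were chosen after their values were seen. In cluster A, Hoxa2, Hoxa4, Hoxa5 and Hoxa6 peaked on Glis3KO2 replicate 1. The brighter Hoxa3 probe was highest on Glis3KO2 replicate 3 (0.81, against 0.21 on Glis3KO2 replicate 1). Hoxa5, which acts in the lung and the neck vertebrae, read 1.90 there, -0.31, -1.33, -2.85 and -4.53 in WT and -1.77, -1.12 and -3.65 in Glis3KO2 replicates 2 to 4. Hoxa2, which gives the second pharyngeal arch its identity, read -1.39 on that array and between -5.06 and -2.68 on the other 7. Hoxa4 read -0.61 there and between -2.66 and -1.30 elsewhere.

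Hoxc8, Hoxc9 and Hoxc10, neighbours in cluster C, peaked on WT replicate 2. Hoxc10 read 3.11 there, 1.43 and 1.94 on Glis3KO2 replicates 2 and 3, and between -1.98 and -1.02 on the other 5 arrays. Hoxc9 read 2.24 on WT replicate 2, 1.35 on Glis3KO2 replicate 3 and -3.19 to -1.23 elsewhere. Hoxc8 read 1.40 and 1.01 on the same pair of arrays and -3.39 to -0.28 elsewhere. High and low arrays of these 3 genes came from either genotype, and their differences between genotypes were 0.58 (SE 1.18), -0.41 (SE 1.12) and 1.43 (SE 0.98).

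In cluster D the posterior members peaked on Glis3KO2 replicate 2. Hoxd11, a limb and kidney gene, read 0.86 there and between -5.30 and -2.62 on the others. Hoxd10 read 0.78 against -2.39 to -1.26, and Hoxd12 read -0.59 against -3.77 to -2.67. These 3 genes stood on the same array as Hoxa11 (4.11) and Hoxa10 (2.02). Glis3KO2 replicate 2 was the highest array for 10 of the 32 members (31.2%), against 15.1% of all genes, and WT replicate 4 was the lowest for 9 (28.1%), against 10.5%.

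**Figure D4:**
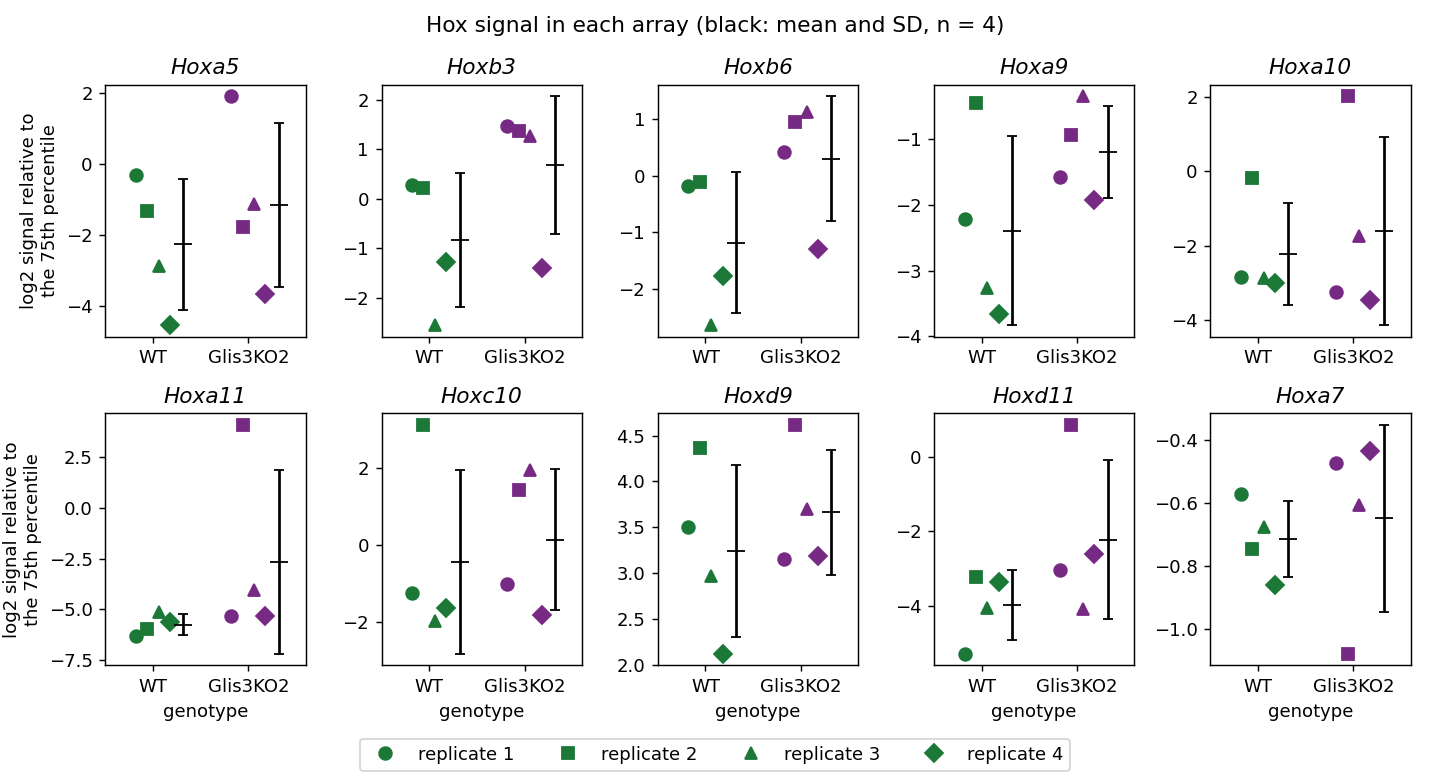
Log2 signal, with the 75th percentile of each array subtracted, for 10 Hox genes on each array, WT in green and Glis3KO2 in purple, with replicate numbers as marker shapes; black bars are mean and SD of the 4 arrays. Hoxa11 is at 4.11 on Glis3KO2 replicate 2 and at or below -4.04 elsewhere, while Hoxa7 stays between -1.08 and -0.44.

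Probes of a gene did not always share a pattern. 9 fitted genes had more than 1 kept probe. For Hoxa3, a gene of the thymus and parathyroid, the brighter probe lay between -0.49 and 0.81, while the other ran from -2.01 on WT replicate 4 to 2.68 on Glis3KO2 replicate 1. The 2 Hoxa3 differences between genotypes were 0.05 (SE 0.31) and 1.24 (SE 0.81). For Hoxb3 the probes had differences of 1.52 (SE 0.77) and 1.02 (SE 0.45), for Hoxd9 0.43 (SE 0.49) and 0.20 (SE 0.37), and for Hoxd3 0.02 (SE 0.30) and 1.22 (SE 0.60). The dimmer Hoxc10 probe, above background on all 8 arrays, spanned 3.60-fold, against 34.2-fold for the brighter one. Its difference between genotypes was -0.16 (SE 0.41), against 0.58 (SE 1.18). Where a gene is called flat or wide in span, the statement is about the probe that stands for it.

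Whether Hox genes follow the stroma was tested with a list of 35 genes of fibroblasts and their matrix (collagens, Dcn, Pdgfra, Tcf21 and others; no Hox gene is in it), 34 of which were measured. Its mean per array, with each gene centred, was -0.37, 0.70, -0.88 and -1.04 in WT and 0.14, 1.42, 0.13 and -0.11 in Glis3KO2. It was highest on Glis3KO2 replicate 2 and WT replicate 2 and lowest on WT replicates 4 and 3. Col1a1, a fibrillar collagen, ran from 2.62 on WT replicate 3 to 6.41 on Glis3KO2 replicate 2. In RNA from a mixed sample, a larger share of stromal cells and more RNA per cell cannot be told apart.

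Hoxb5, Hoxd8, Hoxd9 and Hoxa10 rose with the stroma mean over the 8 arrays. These 4 of 32 members passed the adjusted threshold and none fell, against 1.5% of all genes rising and 0.543% falling. The slope is the change in log2 signal per log2 unit of the stroma mean. It was 0.90 (SE 0.16; limma adjusted p = 0.0355) for Hoxd9, 0.93 (SE 0.19; 0.0450) for Hoxb5, 0.64 (SE 0.13; 0.0455) for Hoxd8 and 2.01 (SE 0.43; 0.0487) for Hoxa10. The Hoxd9 call depends on the probe: its second probe had a slope of 0.41 (SE 0.21; limma adjusted p = 0.283 over all kept probes), and the mean of both a slope of 0.68 (limma adjusted p = 0.0634). Hoxa9 had a slope of 1.27 (SE 0.29) and missed the threshold with a limma adjusted p of 0.0597. Slopes were above 0 in 24 of 32 members, against 40.1% of all genes, and the median slope was 0.57 against -0.09. At an unadjusted p under 0.05, 13 members had a rising slope and 1 a falling slope, against 8.97% and 14.5% of all genes.

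The calls depend on single arrays and on the pairing, which this fit leaves out. With the replicate number as a block no gene was called (0%); the slopes were 0.65 (SE 0.31) for Hoxd9, 1.38 (SE 0.32) for Hoxb5, 0.68 (SE 0.26) for Hoxd8 and 0.79 (SE 0.56) for Hoxa10, and 7 members had a rising slope and none a falling slope at an unadjusted p under 0.05, against 5.2% and 7.83% of all genes. With slide as a block Hoxb5, Hoxd8 and Hoxd9 were called, against 1.44% of all genes rising, and Hoxa10 was not (slope 1.88, SE 0.46; limma adjusted p = 0.0789). No Hox gene was called when WT replicate 2, 3 or 4 or Glis3KO2 replicate 2 or 4 was left out, and none without WT replicates 3 and 4 or without the 2 arrays whose stroma mean lay farthest from the median, Glis3KO2 replicate 2 and WT replicate 4. Without WT replicates 3 and 4, 17 of 32 slopes were above 0 and 6 were rising at an unadjusted p under 0.05, against 6.44% of all genes. Without Glis3KO2 replicate 2 and WT replicate 4 the slopes were 0.75 for Hoxd9, 1.06 for Hoxb5, 0.51 for Hoxd8 and 1.57 for Hoxa10. With genotype as a second term none of all genes was called (0%), and 8 members had a rising slope and 1 a falling slope at an unadjusted p under 0.05, against 6.92% and 8.52% of all genes. The slopes of the called genes were then 1.04 for Hoxd9, 0.81 for Hoxb5, 0.64 for Hoxd8 and 2.48 for Hoxa10. Within slide 1, 23 of 32 slopes were above 0 and within slide 2 24 of 32, with medians of 0.71 and 0.70 over 4 arrays each. The slopes within slides 1 and 2 were 0.40 and 1.07 for Hoxd9, 1.47 and 0.91 for Hoxb5, and 0.52 and 0.74 for Hoxd8.

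Hoxd8 and Hoxd9 were highest where the stroma mean was highest. Hoxd8 read 0.92, 1.35, 0.51 and -0.16 in WT and 1.11, 1.68, 1.02 and 0.86 in Glis3KO2. The order of its arrays was that of the stroma mean at either end, with WT replicates 4 and 3 lowest and the replicates 2 highest. Hoxd9 read 3.50, 4.36, 2.97 and 2.12 in WT and 3.16, 4.62, 3.70 and 3.19 in Glis3KO2, again with the replicates 2 on top. Hoxa9, a gene of blood progenitors and of the posterior trunk, read -2.22, -0.45, -3.27 and -3.65 in WT and -1.58, -0.95, -0.35 and -1.92 in Glis3KO2. Its top array was Glis3KO2 replicate 3, which had a stroma mean near the middle. Glis3KO2 replicate 3 was also the top array of Hoxb5, at -1.06, above the replicates 2 at -1.56 and -1.10.

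Hoxa10, known for the epididymis, the uterus and the descent of the testis, had the steepest slope among the fitted members. It read -2.86, -0.17, -2.87 and -3.02 in WT and -3.26, 2.02, -1.74 and -3.46 in Glis3KO2. Only the replicates 2 of either genotype, and to a lesser degree Glis3KO2 replicate 3, were above a band of 5 arrays between -3.46 and -2.86. Its slope was 0.39 within slide 1 and 2.20 within slide 2, which holds the replicates 2, and 0.25 without those 2 arrays.

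**Figure D5:**
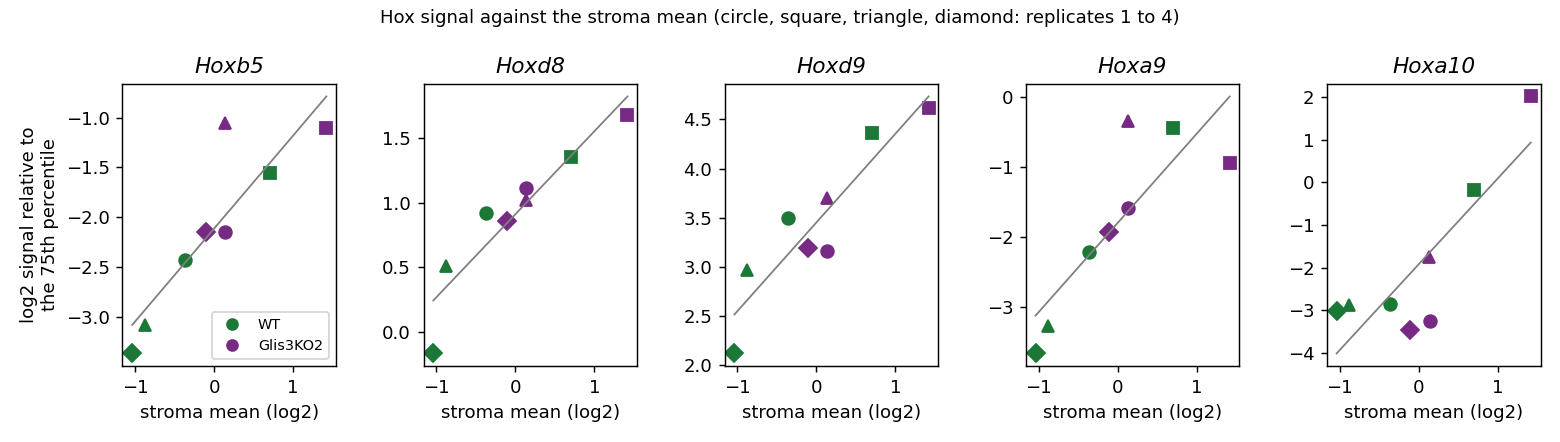
Log2 signal of 5 Hox genes (vertical axis) against the array's mean of 34 stroma genes (horizontal axis, log2, each gene centred), WT in green and Glis3KO2 in purple, with the fitted line. Hoxd8 and Hoxd9 are highest on the replicates 2, Hoxb5 on Glis3KO2 replicate 3, and Hoxa10 is high on the replicates 2, at stroma means of 0.70 and 1.42.

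8 members had slopes below 0 on the stroma mean. Their slopes ran from -0.45 to -0.04, with Hoxa7, Hoxa13, Hoxb9, Hoxb13 and Hoxd13 among them. Of the 12 central members 11 had slopes above 0 (median 0.88), of the 14 posterior members 9 (0.68) and of the 6 anterior members 4 (0.27). Groups 12 and 13 held 6 fitted members. By the probes that stand for them, Hoxd12 (0.49, SE 0.39) and Hoxc13 (0.01, SE 0.36) were the members with a slope above 0.

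Other cell types also moved across the arrays. The smooth muscle and peritubular list (17 of 17 measured) had means of -0.02, 0.35, -0.66 and -1.06 in WT and 0.52, 0.74, 0.55 and -0.43 in Glis3KO2. With it in place of the stroma list, 4 Hox genes were called rising, Hoxa9, Hoxb3, Hoxb5 and Hoxb6, against 1.19% of all genes. The germ cell list went the other way, with -0.40, -0.17, 0.82 and 1.14 in WT and -0.47, -0.64, -0.09 and -0.18 in Glis3KO2, and against its mean 6 of 32 Hox slopes were above 0 (60.5% of all genes) and Hoxd4 was called falling (1.37% of all genes). Since the lists rise and fall together or against each other over the same 8 arrays, their separate parts in the Hox slopes were not tested.

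A list of mesonephric duct and rete epithelium genes, the tissue of the epididymis, had 9 of 9 members measured and above background on all arrays. Its means were 0.21, -0.45, -0.29 and -0.41 in WT and 0.50, 0.40, 0.53 and -0.50 in Glis3KO2. WT replicate 2, where Hoxc9 and Hoxc10 peaked, was its second lowest array. Glis3KO2 replicate 3, the second highest array of both genes, was its highest. On Glis3KO2 replicate 2, where Hoxa10 and Hoxa11 peaked, the list mean was 0.40. The macrophage list mean (15 of 15 measured) ranged from -0.75 to 0.64 over the WT arrays and from -0.32 to 0.67 over the Glis3KO2 arrays. The Sertoli list mean (18 of 18) ranged from -0.43 to 0.67 and from -0.62 to 0.69. The endothelial list mean (11 of 11) ranged from -0.39 to 0.67 in WT and from -0.24 to 0.20 in Glis3KO2. That of the lymphocyte list (8 of 8) ranged from -0.46 to 0.26 and from -0.25 to 0.40. The Leydig list mean (5 of 6) ranged from -1.40 to 1.53 in WT and from -0.15 to -0.02 in Glis3KO2. The part of these cells in the Hox values was not tested.

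The TALE partners of HOX proteins were split. 9 of 9 listed were measured, none passed in the genotype comparison, and 3 rose with the stroma mean, against 1.5% of all genes, among them Meis1 (slope 1.46, SE 0.22; limma adjusted p = 0.0234) and Meis2 (1.58, SE 0.26; 0.0269). Meis1 read -0.02, 1.60, -1.64 and -1.20 in WT and 0.96, 1.76, 1.15 and -0.12 in Glis3KO2. Meis2 stood at 1.23 on Glis3KO2 replicate 2 and between -3.12 and -1.21 elsewhere, so its single high array was the one on which Hoxa11 and Hoxd11 peaked. The other 6 partners had slopes from -0.46 for Pbx2 to 0.60 for Pknox2, and none was called. Pbx2 had an unadjusted p of 0.0459 for a genotype difference of -0.79 (SE 0.35; limma adjusted p = 0.697). As no gene at all was called without WT replicate 3, WT replicate 4 or Glis3KO2 replicate 2, the TALE calls were lost there too, as they were with the replicate block.

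Regulators of the clusters spanned less than the median gene. Of 22 Polycomb and Trithorax genes, which keep Hox genes off or on, 20 were measured and none was called in either comparison. Their median span was 0.97 log2 units, against 1.30 for all genes, and their median difference between genotypes -0.06, against -0.08. Phc1 (-0.69, SE 0.29) and Phc2 (-0.50, SE 0.22), a pair of Polycomb subunits, had unadjusted p of 0.0395 and 0.0493 (limma adjusted p = 0.697 for each). Genes beside the clusters, such as Skap2, Calcoco1 and Mtx2, were all measured (9 of 9) with a median span of 0.97 and none called. Of the Cdx and Evx genes 3 of 5 were measured, of the ParaHox and related homeobox genes 7 of 8, and none was called in either comparison. Among 16 non-coding RNAs of the clusters Hoxd3os1 alone was measured, with a slope of 0.38 (SE 0.22; limma adjusted p = 0.326) and a signal above background on 4 arrays.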

How the data were processed

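RNA of 8 Thy1+ samples was amplified and labelled with Cy3, per the labels' protocols. The deposited scanner files, per the file headers, come from Agilent Feature Extraction (version 12.0.0.7) and give each spot a linear intensity after background subtraction and detrending. The authors' series table equals that intensity on 100% of spots (tolerance 1e-06), on a linear scale with no centring; its column medians were 93.9, 143.6, 67.2 and 75.2 in WT and 103, 117.3, 70.0 and 92.3 in Glis3KO2. The deposited intensity was taken here as log2 minus each array's 75th percentile. Outlier-flagged spots (73 to 109 per array) were left out and spots of a probe averaged. No spot was saturated.

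Probes were named through RefSeq accessions in a GRCm38.p6 gene table: 28223 of 41174 matched 1 gene and 12951 none. Probes were kept if 4 or more of the 8 arrays had them well above background, and the probe of highest mean stood for its gene. In a bound fold, each array of the dim group counts with its own value or with the dimmest value that is well above background there, whichever is higher. limma 3.58.1 in R 4.3.3 (lmFit, eBayes) fitted genotype, and separately the array's stroma mean, over 17508 genes, two-sided, with Benjamini-Hochberg adjustment and a threshold of 0.05; the fits were tested on simulated data. Values in every array are given for the 5 Hox genes of smallest p in each direction of the genotype fit and the 5 of smallest p in the stroma fit. Of the other lists, up to 4 members with an unadjusted p under 0.05 are named.

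Deviations from the group mean correlated at r = 0.16, 0.34, 0.18 and 0.13 across genes (not independent replicates) for arrays of the same replicate number, all over 0.1, so the numbers were taken to pair the samples. Of the 12 mismatched pairs 2 were over 0.1 as well, WT replicate 3 with Glis3KO2 replicate 4 (0.14) and WT replicate 4 with Glis3KO2 replicate 3 (0.12), so the values do not single out the numbering of replicates 3 and 4. The Hox members, the lists and most alternatives were chosen with earlier results of these data known. 1 Hox gene that this rule names and 1 gene of the other lists are not reported here.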

Additional observations from a re-analysis of the deposited data

Results flagged for a closer look

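7 of the 70 groups of 4 arrays examined had an array set apart from the other 3 by most of the group's range (Dixon's test at 95%). Chance alone flags about 1 in 20. All groups of a genotype share the same 4 arrays, so they are not independent, and an excess over that rate was not tested. In WT, replicate 2 was high for Hoxa10 (-0.17; the other 3 at -3.02 to -2.86), Hoxc9 (2.24; -2.04 to -1.77) and Hoxc10 (3.11; -1.98 to -1.25), and WT replicate 3 was high for Hoxb2 (-3.48; -4.53 to -4.37). In Glis3KO2, replicate 2 was high for Hoxa11 (4.11; -5.35 to -4.04), replicate 1 for Hoxa6 (-0.12; -2.15 to -1.86), and replicate 4 was low for Hoxb3 (-1.41; 1.28 to 1.47).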

How the results depend on the processing

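The planned mean spot signal was not used here, so normexp took the median spot signal. The number of genes rising or falling with the stroma mean was 357; it was 27 with normexp and the 75th percentile, 334 with normexp and quantile normalization, 228 with quantile normalization, and 0 with the replicate block, with genotype as a second term, without WT replicates 3 and 4, without Glis3KO2 replicate 2 and WT replicate 4, or without the replicates 2. Leaving out 1 array gave 0 to 606. The 4 Hox calls became 0 in those same fits except quantile normalization, which left 2, as did normexp with quantile normalization; no filter left 1 and every kept probe 1. On the germ cell list none of the 4 was called and 1 other, Hoxd4, was. The slide block left 3. Leaving out 1 array gave 0 to 3. The genotype comparison called 0 genes, or 1 with quantile normalization, and 0 Hox genes throughout. Normexp with the 75th percentile moved the median of all genes from -0.08 to -0.23 and left the Hox median at 0.11 with 17 of 32 members higher; with normexp and quantile normalization the Hox median was 0.28 with 25 of 32 higher.

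These values turned: Hoxb2 to -0.30 with normexp and the 75th percentile, Hoxb13 to 0.0032 with normexp and quantile normalization, and Hoxb9 to 0.10 with the mean of its probes. On the germ cell list the slopes were -0.94 (Hoxd9), -1.03 (Hoxb5), -0.78 (Hoxd8), -1.27 (Hoxa10) and -1.46 (Hoxa9). The cause was not tested. In the genotype comparison the replicate block and the slide block each left the median Hox difference at 0.44 and 0 genes called. The alternatives without pairs of arrays that name the replicates 2 or the farthest stroma means, the fit of every probe and the blocks in the stroma fit were chosen after seeing the data. Signal near background limits Hoxa2, Hoxa5, Hoxa11, Hoxb1, Hoxc12, Hoxc13, Hoxd1 and Hoxd11. Hoxb2 was dim as well, though well above background on all arrays.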
